A study of Mus musculus with 63 samples.

Results

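Neurotrophins and glial cell line-derived neurotrophic factor (GDNF) are secreted proteins that keep neurons alive and shape their axons and synapses, and 8 genes of these ligands and their receptors were followed here through 4 sorted cell populations of mouse cortex. The ligands were Bdnf (brain-derived neurotrophic factor, ENSMUSG00000048482, chromosome 2), Ntf3 (neurotrophin-3, ENSMUSG00000049107, chromosome 6) and Gdnf (ENSMUSG00000022144, chromosome 15). The neurotrophin receptors were Ntrk2 (TrkB, ENSMUSG00000055254, chromosome 13), Ntrk3 (TrkC, ENSMUSG00000059146, chromosome 7) and Ngfr (p75NTR, ENSMUSG00000000120, chromosome 11). The GDNF receptor was represented by its binding subunit Gfra1 (ENSMUSG00000025089, chromosome 19) and its kinase subunit Ret (ENSMUSG00000030110, chromosome 6). The genes were taken from the 4 deposited count tables by Ensembl identifier, 8 of 56980 gene rows, and the rule for taking them named the genes and no level.

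In cortex, BDNF is classically a product of excitatory neurons that signals through TrkB, and neurotrophin-3 signals through TrkC. Both Trk genes also encode truncated forms without a kinase domain, and truncated TrkB is a well-known astrocyte transcript. Counts per gene do not separate these forms. p75NTR binds all mature neurotrophins and, with sortilin, their precursors. GDNF binds GFRα1, which is anchored to the membrane by a lipid, and the pair then activates RET or, without RET, can signal through NCAM.

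Female C57BL/6J mice, 12 weeks old at entry, received a full-thickness flank burn covering 7% to 8% of the body surface or were only shaved (sham), and cortex was taken 5 weeks later. All mice of both arms carried AAV5-CamKII-eGFP and AAV1-mDlx-mRuby2 in the primary motor cortex of both hemispheres, and all received buprenorphine and paracetamol, while some burned mice received further buprenorphine after surgery. CaMKII positive cells (excitatory neurons by label) and CaMKII-mDlx double-positive cells (inhibitory neurons by label) were sorted from motor cortex by viral fluorescence. ACSA2-positive astrocytes and CD11b-positive microglia were sorted from the caudal cortex by surface antibody, so region and sort cannot be told apart between neuron and glia libraries. Myelin was removed from both tissues before sorting. The 58 libraries used, from 17 mice, were CaMKII positive (4 burn, 6 sham), double-positive (9 burn, 7 sham), ACSA2-positive (9 burn, 8 sham) and CD11b-positive (8 burn, 7 sham). All libraries of mouse number 3 and the double-positive library of mouse 8 were left out.

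Total counts ran from 13346143 to 134703744 per library (median 24339895.5), and levels are given in CPM, the read count scaled to a common library total. At these depths a count of 0 allows a level of up to 0.0223 to 0.225 CPM (3 counts, which covers counting error only). In bulk RNA of this kind, fewer cells of a type and less RNA per cell cannot be told apart.

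The labels of both neuron sorts went against the marker genes. In CaMKII positive libraries, 8 general neuron markers summed to 30.9, 90.9 and 150 CPM (lowest, median and highest library), and 8 excitatory markers to 61.1, 136 and 433 CPM. In the same libraries 10 astrocyte markers summed to 14650, 23360 and 27600 CPM and 8 endothelial markers to 4159, 5319 and 11730 CPM. In double-positive libraries 10 inhibitory neuron markers summed to 0.845, 1.91 and 3.76 CPM, with 6 of the 10 at a median of 0, while 10 microglial markers summed to 20530, 24350 and 36920 CPM and the astrocyte markers to 509, 1035 and 1541 CPM. The 2 glial sorts carried the markers of their labels, with astrocyte markers at 39660 to 54670 CPM in ACSA2-positive and microglial markers at 23890 to 36880 CPM in CD11b-positive libraries. Below, the sorts are therefore named by gate and not by cell type.

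**Figure D1:**
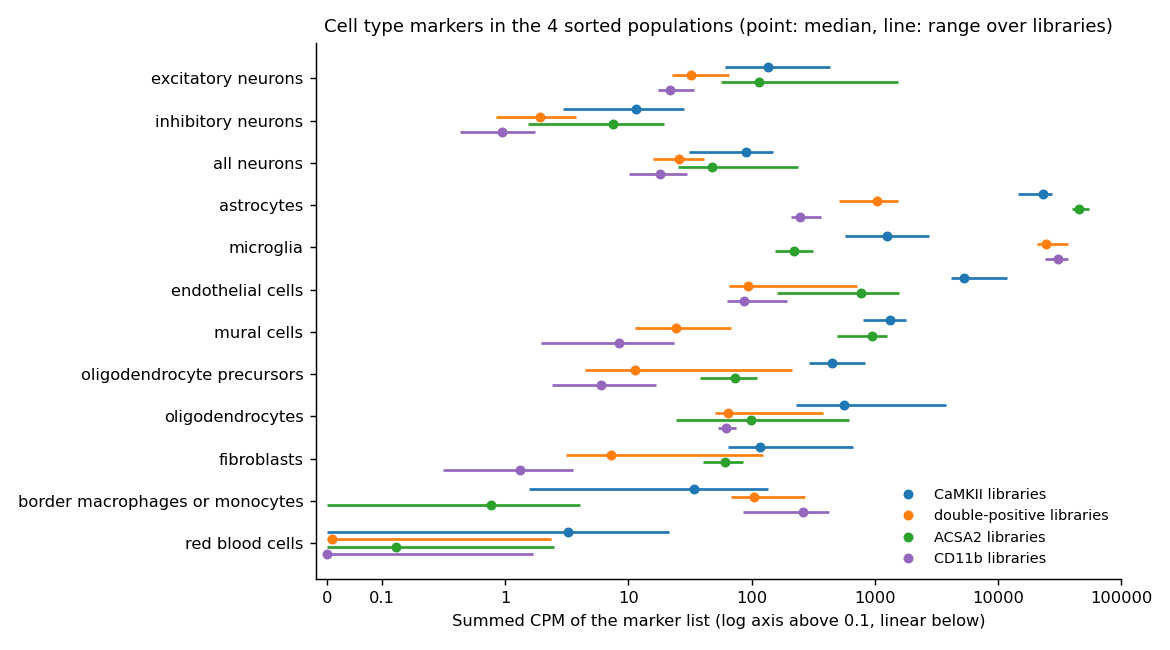
Summed CPM (log axis) of marker lists for neurons and for glial and vascular cells in the 4 sorted populations, where a point is the median and a line the range over libraries. In double-positive libraries the microglial sum (median 24350 CPM) stood far above the inhibitory neuron sum (median 1.91 CPM), and in CaMKII positive libraries the astrocyte sum (median 23360 CPM) stood above the excitatory neuron sum (median 136 CPM).

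The 3 ligands were low transcripts, and Bdnf was the one read in most libraries of a sort. Bdnf had counts in 15 of 17 ACSA2-positive libraries, at 0, 1.88 and 5.77 CPM (lowest, median and highest; mean 1.98 ± 1.59, SD), and in 6 of 10 CaMKII positive libraries, at 0, 0.935 and 2.80 CPM (mean 0.892 ± 0.927). Single libraries of both sorts therefore ran from no Bdnf read to the highest values seen, and the SD was about as large as the mean. Double-positive and CD11b-positive libraries had Bdnf counts in 7 of 16 and 5 of 15 libraries, with highest levels of 0.599 and 0.817 CPM. Of the exon bases of Bdnf, 14.4% are overlapped by the opposite-strand gene Gm45346. That gene itself had 2 counts in 1 ACSA2-positive library and 0 in the other 57.

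Ntf3, which encodes the ligand of TrkC, was read in 3 of 10 CaMKII positive libraries, as 64, 84 and 17 counts (burn mouse 2, sham mouse 8 and sham mouse 17), or 0.475, 3.18 and 0.786 CPM. In ACSA2-positive libraries it had 2 counts in burn mouse 10, 20 counts in burn mouse 24 (0.694 CPM) and none in the other 15. It was at 0 in all 16 double-positive and all 15 CD11b-positive libraries, which allows up to 0.212 and 0.182 CPM in the shallowest library of each. Gdnf had counts in 4 of 10 CaMKII positive, 2 of 16 double-positive, 6 of 17 ACSA2-positive and 1 of 15 CD11b-positive libraries, never above 23 counts, and its highest level, in an ACSA2-positive library, was 1.12 CPM. With counts in so few libraries, neither Ntf3 nor Gdnf could be ranked between sorts by level, and the calls for them below rest on these libraries.

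The receptor genes were much better read, and Ntrk2 stood far above the rest. Ntrk2 lay at 1870, 2289 and 2708 CPM in ACSA2-positive libraries (mean 2262 ± 266), at 737, 996 and 1396 CPM in CaMKII positive libraries (mean 1010 ± 201), at 12.4, 39.4 and 66.8 CPM in double-positive libraries (mean 40.9 ± 17.9) and at 1.88, 4.31 and 12.3 CPM in CD11b-positive libraries (mean 5.16 ± 2.71). No library of one sort reached into the range of another, so the order ACSA2-positive, CaMKII positive, double-positive, CD11b-positive held without overlap for this gene.

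Ntrk3 was read at 11.7, 48.5 and 76.1 CPM in CaMKII positive libraries (mean 48.9 ± 20.4) and at 20.3, 31.2 and 94.4 CPM in ACSA2-positive libraries (mean 39.1 ± 22.8). Double-positive libraries lay at 0.529, 1.66 and 16.8 CPM and CD11b-positive libraries at 0, 0.665 and 1.55 CPM. The upper 2 sorts overlapped broadly, and 1 double-positive library, of burn mouse 10, reached into the CaMKII positive range with 532 counts (16.8 CPM), while the next highest double-positive library had 3.55 CPM. Without it the highest double-positive level was below the lowest level of both sorts.

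Ngfr was a low transcript everywhere. It lay at 0, 1.79 and 6.38 CPM in CaMKII positive libraries (counts in 8 of 10) and at 0, 1.07 and 5.14 CPM in ACSA2-positive libraries (counts in 16 of 17). Double-positive and CD11b-positive libraries had counts in 9 of 16 and 5 of 15 libraries, up to 0.599 and 0.818 CPM. The ranges of all 4 sorts overlapped.

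Of the 2 subunits of the GDNF receptor, Gfra1 overlapped between the upper 2 sorts and Ret was highest in the CaMKII sort. Gfra1 was read at 36.5, 57.9 and 95.7 CPM in ACSA2-positive libraries (mean 59.9 ± 15.3) and at 23.6, 55.1 and 62.5 CPM in CaMKII positive libraries (mean 52.4 ± 11.4), which overlap over most of their ranges. Its levels in double-positive libraries were 0, 1.91 and 5.51 CPM and in CD11b-positive libraries 0, 0.157 and 1.22 CPM, below every ACSA2-positive and CaMKII positive library. Ret was read at 10.2, 19.7 and 36.8 CPM in CaMKII positive libraries (mean 22.1 ± 8.56), above every library of the other sorts. In ACSA2-positive libraries Ret lay at 0, 2.46 and 5.07 CPM (mean 2.39 ± 1.52), and the highest levels in double-positive and CD11b-positive libraries were 2.71 and 0.968 CPM. Detection of Ret in double-positive libraries went with the sequencing batch: all 6 libraries of batches 1 and 2 had counts, and 1 of 10 in batch 3 did. Ngfr (6 of 6 and 3 of 10) and Bdnf (5 of 6 and 2 of 10) did likewise in this sort. Batch went with depth there, at median totals of 31747873, 48405314 and 18629944 counts in batches 1, 2 and 3. Of the exon bases of Gfra1, 7.6% are overlapped by the antisense gene Gm16277, which averaged 0.453 CPM in ACSA2-positive libraries. If strand was not used in counting, reads of such a pair cannot be told apart. The other 6 genes shared at most 0.85% of their short exon stretches with any other gene.

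**Figure D2:**
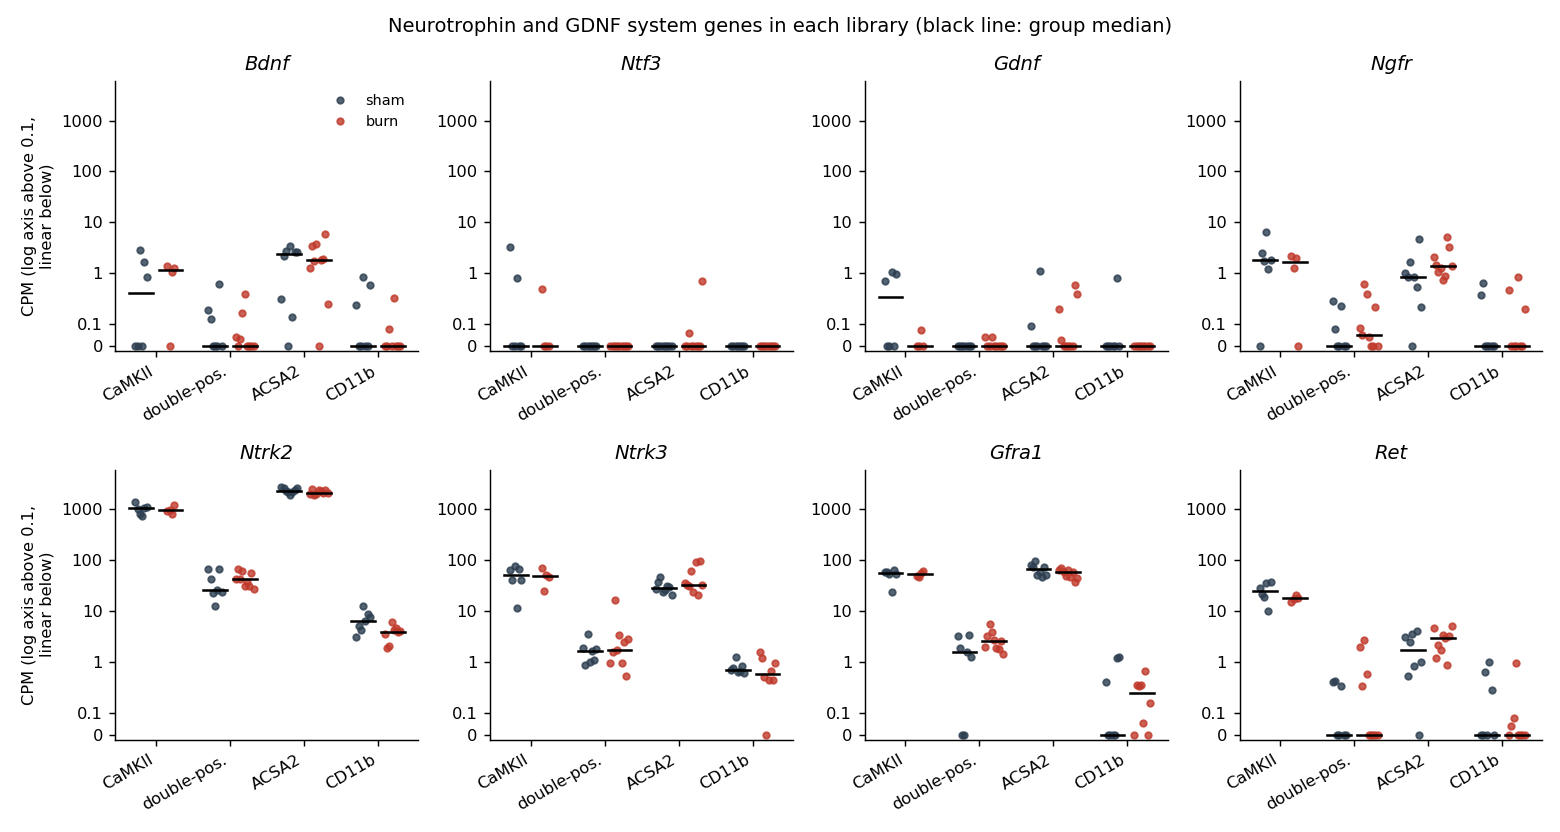
Levels of the 8 genes in CPM (log axis with a linear stretch at 0) in each of the 58 libraries, by sorted population and by burn or sham, with one point per library and a black line for each group median. Ntrk2 separated the 4 sorts without overlap, Ret was highest in all 10 CaMKII positive libraries, and Ntf3 was at 0 in all double-positive and CD11b-positive libraries.

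Genes can be compared with each other only per length, and for this the CPM was divided by the length of all exons of the gene in kb. On this scale the level of Ntrk2 in ACSA2-positive libraries was 117 ± 13.8 CPM per kb (SD, n = 17), that of Gfra1 10.9 ± 2.8, that of Ntrk3 1.30 ± 0.756, that of Ngfr 0.460 ± 0.421, that of Ret 0.353 ± 0.224 and that of Bdnf 0.318 ± 0.256. TrkB was thus the leading receptor transcript of the set, and Ngfr, Ret and Bdnf did not differ beyond their spread. In CaMKII positive libraries (n = 10) the same scale gave 52.4 ± 10.4 for Ntrk2, 9.57 ± 2.08 for Gfra1, 3.26 ± 1.27 for Ret, 1.62 ± 0.676 for Ntrk3, 0.550 ± 0.517 for Ngfr, 0.259 ± 0.583 for Ntf3 and 0.144 ± 0.149 for Bdnf. Ret stood above Ntrk3 in 8 of 10 of these libraries, at 0.688 to 13.4 times its per-kb level, and the last 3 did not differ beyond their spread.

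Within single libraries, the per-kb level of Gfra1 was 0.831, 3.46 and 7.60 times that of Ret in CaMKII positive libraries (lowest, median and highest) and 10.9, 33.4 and 175 times in the 16 ACSA2-positive libraries with Ret counts. These ranges did not overlap. In the double-positive and CD11b-positive libraries with Ret counts, 7 of 16 and 6 of 15, the ratio ran from 1.24 to 11.8 (median 5.90) and from 0 to 10.5 (median 2.82), over the CaMKII range and beyond it. Ntrk2 per kb was 16.9, 36.5 and 98.9 times Ntrk3 in CaMKII positive and 39.2, 113 and 201 times in ACSA2-positive libraries, with overlap. The lengths include every annotated isoform, so a gene of which mainly a short form is made has a lower per-kb value than that form would have.

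**Figure D3:**
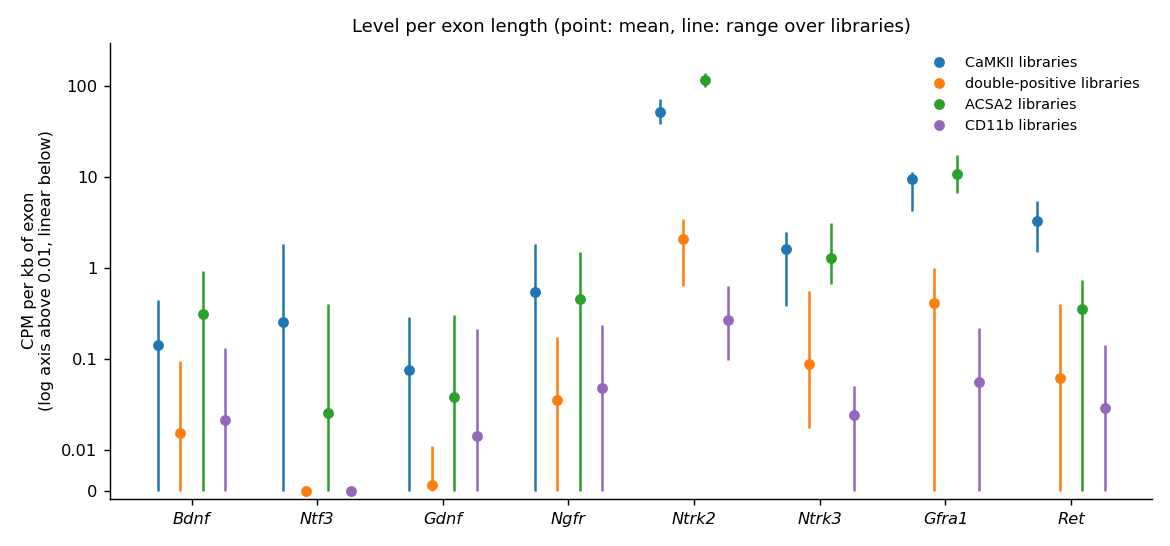
Mean level in CPM per kb of exon length (log axis) of the 8 genes in the 4 sorted populations, with a line for the range over libraries. Ntrk2 led in ACSA2-positive (117) and CaMKII positive libraries (52.4), followed by Gfra1 (10.9 and 9.57).

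The sorts were then compared by edgeR's quasi-likelihood test over all 58 libraries, with 33150 genes tested and a call at adjusted p of at most 0.05 (p.adj, Benjamini-Hochberg) and a log2 fold change (log2FC) of at least 1 in either direction. Between CaMKII positive and ACSA2-positive libraries, 1 of the 8 genes was higher in the CaMKII sort, where 14.1% of all genes tested were, and 1 was higher in the ACSA2 sort, where 4.34% of all genes were. Ret was higher in CaMKII positive libraries, log2FC = 3.11 ± 0.72 (SE, p.adj = 4.48e-04), and in 10 of 10 mice with both libraries. Ntrk2 was lower there, log2FC = -1.34 ± 0.221 (p.adj = 1.46e-06), again in 10 of 10 mice. The summed astrocyte markers of the CaMKII positive libraries averaged 48.3% of the ACSA2-positive mean, beside 44.7% for Ntrk2, 87.5% for Gfra1, 125% for Ntrk3 and 924% for Ret. The part of astrocyte RNA in these levels was not tested.

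The other members gave no call between these sorts. Gfra1 (log2FC = -0.30 ± 0.357, p.adj = 0.573), Ntrk3 (0.18 ± 0.347, p.adj = 0.767), Ngfr (0.45 ± 0.826, p.adj = 0.751) and Bdnf (-1.39 ± 0.981, p.adj = 0.297) had errors that span both directions or, for Bdnf, most of the difference. Ntrk3 had its higher level in the CaMKII positive library in 9 of 10 mice all the same. Ret and endothelial markers were both high in the CaMKII positive libraries of sham mice 17 and 19: Ret had 35.0 and 36.8 CPM there, the highest of the sort, and the endothelial sums were 11730 and 8106 CPM. In the library of mouse 17, astrocyte markers (14650 CPM), Gfra1 (23.6 CPM) and Ntrk3 (11.7 CPM) were each the lowest of the sort. Whether these move together for a common reason was not tested.

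Against double-positive libraries, 7 of the 8 genes were higher in CaMKII positive libraries, beside 27.7% of all genes tested. The log2FC was 5.84 ± 0.876 for Ret, 4.51 ± 0.23 for Ntrk2 (p.adj = 3.66e-25), 4.46 ± 0.393 for Gfra1, 4.44 ± 0.967 for Ngfr, 4.26 ± 0.366 for Ntrk3 and 3.14 ± 0.998 for Bdnf (p.adj = 0.00572). Between ACSA2-positive and double-positive libraries all 8 were called higher in the former, beside 29.1% of all genes, and 6 with the mouse as a block, which ended the calls for Ntf3 (p.adj = 0.228) and Gdnf (p.adj = 0.0570). Among those 6, the log2FC without the block was 5.85 ± 0.226 for Ntrk2, 4.77 for Gfra1, 4.53 for Bdnf, 4.08 for Ntrk3, 3.99 for Ngfr and 2.73 for Ret. In batch 3 alone, where 1 of 10 double-positive libraries had Ret counts, the log2FC of Ret was 5.75 in this comparison and 8.71 for CaMKII positive libraries. The calls for Ntf3 in these comparisons, and that for Gdnf (p.adj = 0.0373), rest on the few libraries with counts given above, and a fitted fold against a sort at 0 has no fixed size.

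Against CD11b-positive libraries, 7 of the 8 genes were higher in CaMKII positive (beside 29.6% of all genes) and 7 in ACSA2-positive libraries (beside 32.1%), Gdnf being the one without a call in both. With the mouse as a block, 8 and 6 were called: Gdnf gained a call for the CaMKII sort (p.adj = 0.0453), and Ntf3 lost its call for the ACSA2 sort (p.adj = 0.188). The largest difference of the set was that of Ntrk2 between ACSA2-positive and CD11b-positive libraries, log2FC = 8.86 ± 0.267, and Gfra1 followed at 7.64. The summed astrocyte markers averaged 0.560% of their ACSA2-positive mean in CD11b-positive libraries, and Ntrk2 averaged 0.228% of its own. The CD11b sum rested on the upper markers of the list. The median marker of a library lay at 3.61 CPM in CD11b-positive and 2530 CPM in ACSA2-positive libraries (medians over libraries), so the sum overstates the typical marker.

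The 2 sorts rich in microglial markers also differed from each other. Ntrk2 (log2FC = 3.02 ± 0.213, p.adj = 5.18e-17), Gfra1 (2.87 ± 0.424, p.adj = 6.99e-07) and Ntrk3 (1.75 ± 0.35, p.adj = 2.67e-04) were higher in the double-positive sort than in the CD11b sort, 3 of 8 genes beside 6.37% of all genes tested. Ntrk2 was higher in 14 of 14 mice, Ntrk3 in 13 of 14 and Gfra1 in 12, with both libraries at 0 in the remaining 2. Astrocyte markers moved the same way: their mean sum in double-positive libraries was 2.16% of the ACSA2-positive mean, against 0.560% in CD11b-positive libraries, and 8 of 10 of them were called higher. Beside this, the double-positive mean was 1.81% of the ACSA2-positive mean for Ntrk2, 3.76% for Gfra1 and 6.82% for Ntrk3. Whether carried-over astrocyte RNA set these levels was not tested. Without mouse 10, whose double-positive library stood apart for Ntrk3, its log2FC was 1.14, still called. In sham mice alone, Ntrk3 (log2FC = 1.07, p.adj = 0.109) and Gfra1 (1.97, p.adj = 0.215) lost their calls.

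The genes with the pattern most like each receptor over the 58 libraries were found by Pearson's r of log2(CPM + 0.5) with TMM-scaled CPM, among 19380 genes. For Ntrk2 they were the astrocyte glutamate transporter Slc1a2 (r = 0.997), the matricellular gene Sparcl1 (0.997) and the proteoglycan Ncan (0.996). For Gfra1 they were Gpm6b and Gcnt4 (both 0.986) and the receptor kinase Egfr (0.985), and for Ntrk3 they were Col5a2 (0.966), Csmd2 (0.966) and Hr (0.961). For Ret they were Kank3 (0.960), the glutamate transporter Slc1a1 (0.959) and the ceramidase Acer2 (0.958). The likeness was weaker for the sparse genes Bdnf (Gm44168, 6330415B21Rik and Zswim5, 0.791 to 0.796) and Ngfr (Ip6k3, Trim62 and Rab13, 0.782 to 0.784). These values describe the order of the 4 sorts, since libraries of a sort share their cell content, and Slc1a2 is itself one of the astrocyte markers.

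Of 49 further genes of the same pathways, 47 were tested between sorts. They were other neurotrophins and their receptors, other GDNF family ligands and receptors, adaptors of Trk and RET, enzymes that process pro-neurotrophins, and partners of p75NTR. Between CaMKII positive and ACSA2-positive libraries, 10 were higher and 3 lower in the CaMKII sort (21.3% and 6.38%, beside 14.1% and 4.34% of all genes tested), and their median log2FC was 0.42 beside -0.03 for all genes tested. Against double-positive libraries 24 were higher and 4 lower in the CaMKII sort (51.1% and 8.51%, beside 27.7% and 17.5% of all genes), with a median of 1.14 (all genes 0.14). Against CD11b-positive libraries the numbers were 24 and 5 (51.1% and 10.6%, beside 29.6% and 15.8%), with a median of 1.15 (all genes 0.20). The ACSA2 sort was higher for 19 and lower for 8 against double-positive libraries (40.4% and 17%, beside 29.1% and 23.3%; median 0.65, all genes 0.12). Against CD11b-positive libraries it was higher for 21 and lower for 8 (44.7% and 17%, beside 32.1% and 21.7%), with a median of 0.76 (all genes 0.24). Between double-positive and CD11b-positive libraries 10 were higher and 1 lower in the former (21.3% and 2.13%, beside 6.37% and 1.62%), with a median of 0.14 (all genes 0.15). With genes at 0 throughout a sort left out, these 6 medians were 0.33, 1.14, 0.90, 0.67, 0.76 and 0.07.

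The called differences described next are among the largest of the pathway genes in each comparison of sorts, and came from receptors of the sortilin family, processing enzymes, a ligand, an adhesion molecule and an adaptor. Sorcs2, a receptor for pro-neurotrophins that pairs with p75NTR, averaged 393 ± 44.9 CPM in ACSA2-positive and 171 ± 44.4 CPM in CaMKII positive libraries but 5.62 ± 2.72 and 0.860 ± 0.701 CPM in double-positive and CD11b-positive ones (log2FC = 6.20 between the ACSA2 and double-positive sorts). Its relative Sorcs3 was higher in the CaMKII sort than in the ACSA2 sort (log2FC = 4.42 ± 1.08) at low levels of 3.45 ± 2.10 and 0.305 ± 0.641 CPM. Pcsk6, a convertase of the furin family, averaged 163 ± 24.3 CPM in ACSA2-positive and 87.2 ± 19.4 CPM in CaMKII positive libraries, and its log2FC was 6.24 for ACSA2-positive against double-positive libraries.

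Plat, the tissue plasminogen activator that starts the plasmin cascade cleaving pro-BDNF, averaged 217 ± 75.9 CPM in CaMKII positive libraries and 4.49 ± 7.33 CPM in double-positive ones (log2FC = 5.56 ± 0.49). Mmp9, a matrix metalloproteinase that can also cleave pro-BDNF, was highest in the CD11b sort: it averaged 14.2 ± 8.50 CPM in CD11b-positive libraries and 0.0119 CPM in ACSA2-positive ones (log2FC = -10.14 for ACSA2-positive against CD11b-positive, -5.60 for double-positive against CD11b-positive). Microglial marker sums of these last 2 sorts were close (medians 24350 and 30550 CPM), while markers of border macrophages or monocytes were at 104 and 262 CPM, and their part in the Mmp9 level was not tested. The call for Mmp9 between the CaMKII and ACSA2 sorts rests on 2 of 10 CaMKII positive libraries with counts. Ncam1, the alternative partner of GFRα1, averaged 827 ± 70.0 CPM in ACSA2-positive and 16.3 ± 7.34 CPM in double-positive libraries (log2FC = 5.76), and the RET and Trk adaptor gene Dok5 was higher in the double-positive sort than in the CD11b sort (log2FC = 2.78) at means of 0.425 and 0.0791 CPM. Ntf5, for neurotrophin-4, had counts in 1 of 10 CaMKII positive libraries and none in ACSA2-positive ones. Its call between these sorts rests on that library.

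Burn and sham were compared within each sort, with the sequencing batch as a term. None of the 8 genes was called for burn in any sort, beside 0% of all genes tested in each. By edgeR's quasi-likelihood test 0 of 28107 genes were called in CaMKII positive, 0 of 26707 in double-positive, 0 of 27930 in ACSA2-positive and 0 of 26079 in CD11b-positive libraries, with 1096, 1872, 2984 and 2036 genes at an unadjusted p under 0.05. DESeq2 called 3, 2, 27 and 80 genes, none of them one of the 8. The numbers of the 8 genes that could be tested were 8, 6, 8 and 7, of which 0, 0, 3 and 2 had an unadjusted p under 0.05 by edgeR. Among these were nearly empty genes: Ntf3 in ACSA2-positive (p = 0.0265, counts in 2 of 17 libraries) and Gdnf in CD11b-positive libraries (p = 0.0387, counts in 1 of 15). The burn and sham ranges overlapped for all 8 in all 4 sorts. Overlap was forced where both arms had libraries at 0, and the share among all genes was not counted. A log2FC is given below only for a gene with a mean of at least 1 CPM in the sort, a limit set after the values were seen.

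In CaMKII positive libraries the receptor levels lay close together. Ntrk2 had 934, 989, 819 and 1231 CPM in burn mice 2, 20, 22 and 24, beside 737, 1042 and 1396 CPM in sham mice (lowest, median and highest), with log2FC = -0.03 ± 0.222 (p.adj = 1.00). Ntrk3 had 68.8, 25.2, 50.1 and 46.9 CPM in the burn mice and 11.7, 52.1 and 76.1 CPM in sham (log2FC = -0.13 ± 0.386, p.adj = 1.00). The burn values lay within the sham range for both genes.

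Gfra1 had 48.1, 47.2, 56.5 and 61.6 CPM in the 4 burn mice and 23.6, 56.0 and 62.5 CPM in sham mice (log2FC = 0.05 ± 0.234, p.adj = 1.00). Ret had 15.2, 16.8, 20.2 and 18.3 CPM in burn mice and 10.2, 24.6 and 36.8 CPM in sham mice (log2FC = -0.51 ± 0.331, p.adj = 1.00). The burn values of Ret all lay in the lower part of the sham range, whose upper end was set by sham mice 17 and 19. Ngfr had 2.12, 1.28, 1.95 and 0 CPM in burn mice and 0, 1.79 and 6.38 CPM in sham mice (log2FC = -0.52 ± 1.75, p.adj = 1.00). Bdnf had 1.39, 0, 1.05 and 1.25 CPM in burn mice and counts in 3 of 6 sham mice, up to 2.80 CPM. Gdnf had 18, 23 and 21 counts in sham mice 8, 17 and 19 and 1 count in burn mouse 22, and Ntf3 had counts in 1 of 4 burn and 2 of 6 sham mice.

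In double-positive libraries Ntrk2 lay at 26.9, 42.9 and 66.8 CPM in burn and at 12.4, 25.5 and 66.3 CPM in sham mice (log2FC = 0.28 ± 0.27, p.adj = 0.961). Astrocyte marker sums in the same libraries were 722, 1063 and 1483 CPM in burn and 509, 648 and 1541 CPM in sham mice. Gfra1 lay at 1.39, 2.54 and 5.51 CPM in burn and at 0, 1.58 and 3.42 CPM in sham mice (log2FC = 0.68 ± 0.643, p.adj = 0.953). Medians of Ntrk2, Gfra1 and the astrocyte sum were all higher in burn, within overlapping ranges. Ntrk3 lay at 0.529, 1.67 and 16.8 CPM in burn and at 0.850, 1.66 and 3.55 CPM in sham mice (log2FC = 0.19 ± 0.568, p.adj = 1.00). Batch 1 held burn mice alone, so its libraries add nothing to the contrast once batch is a term. Bdnf had counts in 4 of 9 burn and 3 of 7 sham mice, Ngfr in 6 and 3, Ret in 4 and 3, and Gdnf in 2 and 0. Ntf3 had none in either arm. Within batch 3, Bdnf had counts in 1 of 5 burn and 1 of 5 sham mice, Ngfr in 2 and 1, and Ret in 0 and 1.

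The largest of these burn estimates was that of Ntrk3 in ACSA2-positive libraries. It lay at 20.4, 33.1 and 94.4 CPM in burn mice (mean 47.2 ± 28.7) and at 20.3, 28.3 and 46.0 CPM in sham mice (mean 29.96 ± 8.19), with log2FC = 0.77 ± 0.256 (unadjusted p = 0.00639, p.adj = 0.458 by edgeR). Burn mice 23, 21 and 11, at 94.4, 92.4 and 62.2 CPM, stood above every sham mouse, and the other 6 burn mice lay between 20.4 and 35.5 CPM, inside the sham range. Leaving out mice 21 and 23, a choice made after their values were seen, gave log2FC = 0.13. These mice had the 2 highest values, so the estimate had to fall, and this run cannot test the difference. Without 1 library at a time the log2FC ran from 0.55 to 0.91. Within batch 3 alone the log2FC was 1.03 (p.adj = 0.470). In the 3 libraries with high Ntrk3, the sums of 11 of 12 marker lists lay within the range of the other 14 libraries, and for border macrophages 1 library lay above it (4.07 CPM, beside a highest value of 1.81 CPM). That range is wide (excitatory sums up to 1549 CPM, median 105 CPM), so lying within it says little. All 3 lay above the median of the other 14 for oligodendrocytes, endothelial cells (770 to 969 CPM, median 743 CPM), fibroblasts, border macrophages and red blood cells. They lay below it for astrocytes (42130 to 45140 CPM, median 46410 CPM) and inhibitory neurons. Over all ACSA2-positive libraries, 7 of 8 endothelial markers had an unadjusted p under 0.05 for burn and 0 were called, with a median log2FC of 0.57 beside 0.05 for all genes. Their sums were 530, 780 and 1567 CPM in burn and 161, 631 and 901 CPM in sham mice, and their part in the values of this sort was not tested.

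Gfra1 went the other way in ACSA2-positive libraries. It lay at 36.5, 57.9 and 68.8 CPM in burn mice (mean 54.1 ± 10.9) and at 46.9, 66.4 and 95.7 CPM in sham mice (mean 66.4 ± 17.6), with log2FC = -0.35 ± 0.136 (unadjusted p = 0.0181, p.adj = 0.458). Burn mice 21, 23 and 24 lay below every sham mouse, and sham mice 8, 12, 13 and 18 lay above every burn mouse. Within batch 3 alone the log2FC was -0.17, with burn at 36.5 to 63.5 CPM and sham at 46.9 to 73.9 CPM. The antisense gene Gm16277 had counts in 9 of 9 burn mice, at 0.260 to 1.17 CPM, and in 4 of 8 sham mice, up to 0.896 CPM.

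The other receptors had no unadjusted p under 0.05 in this sort. Ntrk2 lay at 1870, 2101 and 2478 CPM in burn and at 1874, 2333 and 2708 CPM in sham mice (log2FC = -0.14 ± 0.109, p.adj = 0.729). Ret lay at 0.866, 2.91 and 5.07 CPM in burn and at 0, 1.72 and 4.06 CPM in sham mice (log2FC = 0.40 ± 0.631, p.adj = 0.929). Ngfr lay at 0.718, 1.35 and 5.14 CPM in burn and at 0, 0.832 and 4.62 CPM in sham mice (log2FC = 0.65 ± 0.755, p.adj = 0.872). Without 1 library at a time its log2FC ran from 0.29 to 1.65, the upper end without sham mouse 18, which had the highest sham value. These 3 receptors overlapped over nearly their whole ranges. Bdnf lay at 0, 1.77 and 5.77 CPM in burn and at 0, 2.36 and 3.41 CPM in sham mice (log2FC = 0.57 ± 0.891, p.adj = 0.926). The highest value was that of burn mouse 23, and the log2FC was -0.0723 without that mouse and -0.22 without mice 21 and 23, so its direction rests on mouse 23. Gdnf had counts in 4 of 9 burn and 2 of 8 sham mice, and Ntf3 in 2 burn and 0 sham mice.

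In CD11b-positive libraries only Ntrk2 was high enough for a log2FC. It lay at 1.88, 3.91 and 6.05 CPM in burn mice (mean 3.79 ± 1.35) and at 3.03, 6.47 and 12.3 CPM in sham mice (mean 6.73 ± 3.10), with log2FC = -0.66 ± 0.265 (unadjusted p = 0.0204, p.adj = 0.639). Within batch 3 the burn libraries lay at 3.83 to 6.05 CPM and the sham libraries at 4.30 to 12.3 CPM, with log2FC = -0.76 (p.adj = 0.607). Astrocyte marker sums in these libraries were 208, 229 and 367 CPM in burn and 230, 279 and 336 CPM in sham mice. The median astrocyte marker of a library lay at 2.91 CPM in burn and 6.13 CPM in sham mice (medians over libraries), within overlapping ranges. For burn, the median log2FC was -0.46 for the 10 astrocyte and -0.77 for the 8 endothelial markers, beside 0.00 for all genes. Of these markers, 1 astrocyte and 2 endothelial ones had an unadjusted p under 0.05 by edgeR, and 0 were called. Endothelial sums were 63.8, 79.3 and 113 CPM in burn and 75.7, 108 and 194 CPM in sham mice, and the part of either list in the difference was not tested. Gdnf had 14 counts in 1 sham mouse and none in the other 14 mice. Bdnf had counts in 2 of 8 burn and 3 of 7 sham mice, Ret in 3 and 3, Gfra1 in 6 and 3, Ntrk3 in 7 and 7, and Ngfr in 3 and 2. Ntf3 had none in either arm.

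**Figure D4:**
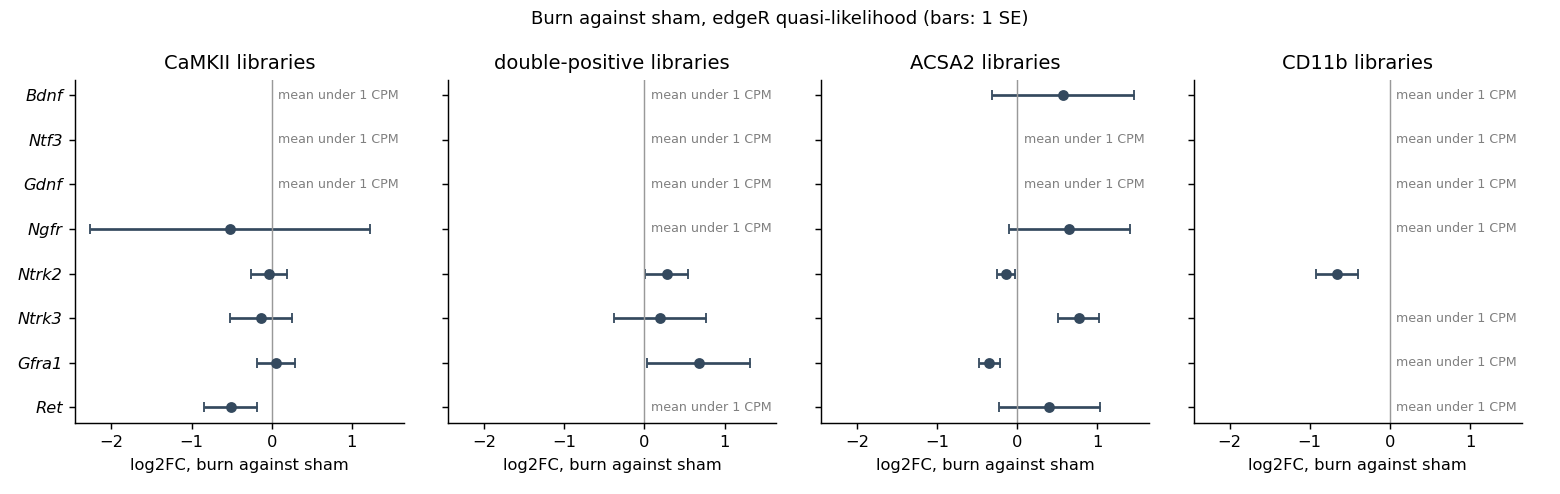
Log2FC of burn against sham (axis in log2 units) for each gene with a mean of at least 1 CPM in the sort, with one panel per sort, one row per gene and bars for 1 SE. The estimates ran from -0.66 for Ntrk2 in CD11b-positive libraries to 0.77 for Ntrk3 in ACSA2-positive libraries, and none passed the adjusted test.

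**Figure D5:**
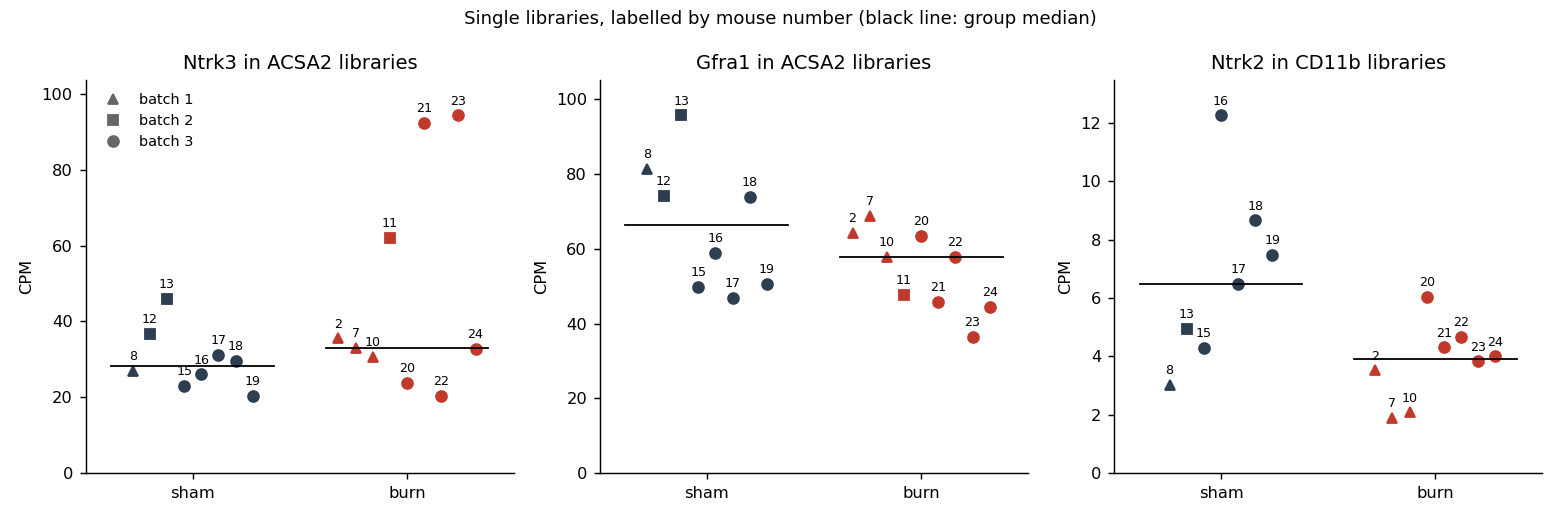
CPM in single libraries for Ntrk3 and Gfra1 in the ACSA2 sort and Ntrk2 in the CD11b sort, split by sham and burn, with one point per library numbered by mouse, the symbol for its batch and a black line for the group median. In ACSA2-positive libraries 3 burn mice stood above all sham mice for Ntrk3 (62.2 to 94.4 CPM), and the other 6 lay within the sham range.

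Of the 49 pathway genes, 0 were called for burn in any sort by edgeR, with 4 of 47, 0 of 45, 2 of 45 and 4 of 45 at an unadjusted p under 0.05 in CaMKII positive, double-positive, ACSA2-positive and CD11b-positive libraries. Their median log2FC was 0.00, 0.01, -0.02 and -0.04, beside 0.02, 0.00, 0.05 and 0.00 for all genes tested.

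Whether the burn effect differed between sorts was tested in the same way. These fits had no term for the mouse, though the sorts share mice. With the mouse as a block, 0 genes were called in both tests. Between CaMKII positive and double-positive libraries 7 of 30693 genes were called (0.0228%), and between ACSA2-positive and CD11b-positive libraries 1 of 30983 (0.00323%), and 0 of the 8 genes in either. The burn log2FC of Ntrk2 was higher by 0.65 ± 0.26 in ACSA2-positive than in CD11b-positive libraries (unadjusted p = 0.0180, p.adj = 0.354). Between CaMKII positive and double-positive libraries the burn log2FC differed by -0.29 ± 0.392 for Ntrk2, -0.51 ± 0.776 for Ntrk3 (-0.0364 without mouse 10) and -0.70 ± 0.706 for Gfra1.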

How the data were processed

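RNA of sorted cells was sequenced as stranded total RNA after ribosomal depletion. Per the labels and the study's methods, the authors trimmed reads with fastp, aligned them with STAR to GRCm39 (the submitters' notes also name mm10) and deposited raw counts per gene, one table per sort, made with GenomicAlignments; whether strand was used is not given in the sources used here. Deposited tables of transformed values were not used. Groups came from the labels, the left-out mouse and library from the study's methods, and sequencing batches from the study's methods.

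Symbols, exon lengths and overlaps came from GENCODE M21 (GRCm38), so no coordinates are given. Genes with at least 10 counts in a fit were tested by edgeR 4.0.16 (TMM, quasi-likelihood test, Benjamini-Hochberg) in R 4.3.3, with treatment and batch as terms; sorts were compared over all libraries. Standard errors are the absolute log2FC over the square root of F. DESeq2 1.42.0, filters, scalings, blocks and left-out libraries were alternatives. The scripts were tested on simulated data. The members, gene lists and tests were chosen with earlier results of these data known. All 8 members were named in every sort, with the 3 largest called differences among the pathway genes in each comparison of sorts, 3 like genes per member and marker sums; one pathway gene that this rule names is not reported here.

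Libraries with the same mouse number came from the same animal. The deviations from group means of same-mouse libraries had a median correlation of 0.015 to 0.190 over the 6 pairs of sorts. Each library is a separate mouse within a sort.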

Additional observations from a re-analysis of the deposited data

Results flagged for a closer look

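Of 30 groups of libraries examined for a single value far from the others, 4 had one, where 1.5 would be flagged by chance (about 1 in 20). In double-positive burn libraries, Ntrk3 stood at 16.8 CPM in mouse 10, beside 3.30 CPM in the next library. The same library had the highest marker sums of its sort for oligodendrocyte precursors (213 CPM), oligodendrocytes (381 CPM), endothelial cells (716 CPM) and fibroblasts (124 CPM), and their part in the Ntrk3 value was not tested. In double-positive sham libraries, Ntrk3 stood at 3.55 CPM in mouse 15, beside 1.82 CPM in the next. In ACSA2-positive sham libraries, Ngfr stood at 4.62 CPM in mouse 18 (114 counts), beside 1.68 CPM. In CaMKII positive sham libraries, Gfra1 stood low in mouse 17, at 23.6 CPM beside 53.0 CPM in the nearest.

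The left-out burn mouse 3 had levels above the highest sham library in 4 cases. Its CaMKII positive library had 1507 CPM of Ntrk2 (highest sham 1396) and 39.4 CPM of Ret (highest sham 36.8), and its ACSA2-positive library had 86.2 CPM of Ntrk3 (highest sham 46.0) and 7.03 CPM of Ret (highest sham 4.06). Of the burn libraries used, 3 of 9 for Ntrk3 and 2 of 9 for Ret in the ACSA2 sort also stood above every sham library. In the CaMKII sort 0 of 4 did so for Ntrk2 or Ret. The 4 cases of mouse 3 were listed because they stood above sham. Its levels within or below the sham range, and the share of all genes above it, are not given here. Whether these cases are more than the spread of single libraries, or bear on burn, was not tested.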

How the results depend on the processing

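None of the 8 genes was called for burn under any alternative run. Numbers of genes called for burn by edgeR moved from 0 with no filter on low counts (14 in double-positive, 4 in ACSA2-positive libraries), with all deposited libraries (136 in double-positive) and by DESeq2 (3, 2, 27 and 80); they were 0 without any 1 library. Of the burn log2FC, Ntrk2 in CaMKII positive libraries was 0.0796 with all deposited libraries and 0.12 in batch 3 alone, Ntrk2 in ACSA2-positive libraries 0.0233 in batch 3 alone, and Bdnf there -0.22 without mice 21 and 23. Without 1 library at a time, values ran from -0.18 to 0.11 (Ntrk2), -0.31 to 0.0759 (Ntrk3), -1.37 to 0.46 (Ngfr) and -0.0796 to 0.14 (Gfra1) in CaMKII positive, from -0.0025 to 0.47 (Ntrk3) in double-positive and from -0.0723 to 0.85 (Bdnf) in ACSA2-positive libraries. Over all alternatives the log2FC ran from 0.13 to 1.03 for Ntrk3 (p.adj 0.178 to 0.902) and from -0.43 to -0.17 for Gfra1 (p.adj 0.423 to 0.934) in ACSA2-positive and from -0.82 to -0.49 for Ntrk2 (p.adj 0.471 to 0.835) in CD11b-positive libraries. The values 0.13 and 0.902 for Ntrk3 came from leaving out mice 21 and 23, its 2 highest values. Between sorts, Ngfr in CaMKII positive against ACSA2-positive libraries ran from -0.0781 (without mouse 17) to 1.01 without 1 mouse at a time. In sham mice alone 3879 genes were called between these sorts. Between double-positive and CD11b-positive libraries 568 genes and 1 member were called in sham mice alone, 1056 genes in batch 3 alone and 1529 with the replicate block (mouse), and Bdnf lost its call between ACSA2-positive and CD11b-positive libraries in sham mice alone (2.59, p.adj = 0.156). With the replicate block the members called were 2, 7, 8, 6, 6 and 3 for CaMKII against ACSA2, double-positive and CD11b, ACSA2 against double-positive and CD11b, and double-positive against CD11b. The differences of burn effects then had 0 genes called in both tests, and without 1 mouse at a time 1 to 16 and 0 to 34. No paired analysis was possible because burned and sham mice are different animals for burn against sham. Of the other values, 323 burn, 802 sort and 80 difference estimates kept direction and call. Zeros in many libraries limit Ntf3, Gdnf and, outside ACSA2-positive libraries, Bdnf to statements on detection. Calls between sorts that include these genes say that more reads were found in one sort, and their fold has no firm size. This holds for Bdnf between CaMKII positive and double-positive libraries, at means of 0.892 and 0.0956 CPM.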
